A study of Homo sapiens with 6 samples.

Results

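The ULK complex and the autophagy PI3-kinase complex are the kinase assemblies that start the formation of an autophagosome. They are described here by 10 genes of the 60843 in the deposited expression table, chosen by gene name. ULK1, ULK2, ATG13, RB1CC1 and ATG101 encode the ULK complex, and BECN1, PIK3C3, PIK3R4, ATG14 and UVRAG encode the PI3-kinase complex. Each name matched 1 row of the table, and all 10 passed the filter on low values (an average of 0.5 FPKM or more across the 6 libraries).

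RNA was sequenced from SW872-S, a human liposarcoma cell line kept in DMEM with fetal bovine serum and antibiotics. There were 3 libraries of the negative control (NC, genotype TP53INP2 NC) and 3 of cells carrying a plasmid that overexpresses TP53INP2 (genotype TP53INP2 OE). TP53INP2 encodes a nuclear protein that leaves the nucleus on starvation and helps autophagosomes to form, and the study asks about mitophagy and the coactivator YAP in dedifferentiated liposarcoma. The labels do not say what the control cells carry, how long TP53INP2 was overexpressed, whether a line is 1 clone, or whether replicate libraries stand for separate cultures. The p-values therefore rest on the variation among these 6 libraries, and that variation may be technical. The design text names 2 cell sources without further detail, so a difference of source between the groups cannot be told apart from TP53INP2 overexpression.

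The ULK complex joins a protein kinase, ULK1 or its paralog ULK2, to ATG13, to the large scaffold FIP200 (encoded by RB1CC1) and to ATG101, which binds and stabilises ATG13. The kinase is held back by mTORC1 and activated by AMPK, and on starvation the complex gathers where the phagophore forms. There it activates the PI3-kinase complex, in which the lipid kinase VPS34 (PIK3C3) is bound to VPS15 (PIK3R4) and Beclin 1 (BECN1) and makes phosphatidylinositol 3-phosphate (PI3P). ATG14 directs this core to autophagosome formation, while UVRAG takes its place in a form of the complex that works on endosomes and later steps. TP53INP2 itself acts near this step, through binding to LC3-family proteins and VMP1.

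The libraries held between 16038062 and 17607612 reads assigned to genes. TP53INP2 was at 10.6, 9.45 and 9.67 FPKM in NC and at 18.9, 23.4 and 27.1 FPKM in TP53INP2 OE, so that the groups did not overlap (log2 fold change 1.13, limma adjusted p = 0.00282). Of 9 mesenchymal markers 6 had a mean of at least 0.5 FPKM, with VIM at 731 ± 17.1 FPKM in NC (SD, n = 3), while COL1A2, COL3A1 and THY1 did not. COL1A1 (121 ± 5.13 to 89.0 ± 5.49 FPKM), COL6A1 (270 ± 22.3 to 221 ± 7.55) and PDGFRB (8.20 ± 0.93 to 5.90 ± 0.42) fell in TP53INP2 OE and FN1 (565 ± 24.1 to 629 ± 18.7) rose, while VIM and SPARC did not pass (limma). With GC content and gene length fitted out COL1A1 alone of the 6 passed (adjusted p = 0.0208). Of 6 mature adipocyte markers only LPL had a mean of at least 0.5 FPKM. ADIPOQ, LEP and FABP4 were listed at 0 in every library. Of 5 endothelial markers 4 had a mean of at least 0.5 FPKM, against 1 of 5 epithelial and 1 of 5 leukocyte markers. In NC, CDH5 was at 32.3 ± 2.46 and TEK at 11.5 ± 0.74 FPKM. CDH5 fell to 27.8 ± 0.72 FPKM in TP53INP2 OE and TEK rose to 14.1 ± 0.07 FPKM (limma, adjusted p = 0.0323 and 0.00810). With GC content and gene length fitted out CDH5 did not pass (log2 fold change -0.08, limma adjusted p = 0.408), while TEK did (0.21, adjusted p = 0.0479). LPL passed as lower in that fit (-0.23, adjusted p = 0.0398) and did not pass before it (adjusted p = 0.0781). The summed mesenchymal level lay between 1734 and 1860 FPKM in NC and between 1769 and 1825 FPKM in TP53INP2 OE. The summed endothelial level lay between 46.5 and 51.3 FPKM in NC and between 46.1 and 47.8 FPKM in TP53INP2 OE. The part of these markers in the results was not tested.

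Of the 10 genes, RB1CC1, PIK3C3 and PIK3R4 rose and ATG101 fell in TP53INP2 OE (limma, adjusted p below 0.05 over 14791 tested genes). The other 6 did not pass. Over all tested genes 16.4% rose and 18.6% fell, 35.0% in all, so 4 of 10 is close to the background. The largest of these changes were modest, with ratios of group means between 0.722 for ATG101 and 1.30 for PIK3C3. The libraries of the groups did not overlap for 8 of the 10 genes, 4 with TP53INP2 OE above and 4 with it below, where 50.8% of all tested genes were apart in this way (25.2% above and 25.6% below). The median log2 fold change of the 10 genes was 0.035, beside 0.0032 for all tested genes, and the median absolute log2 fold change was 0.14, beside 0.18. Once the trend with GC content and gene length was taken out of every library, no member passed, where 10.4% of all genes did (4.53% higher and 5.88% lower, limma). With that correction 3 of the 10 had an unadjusted p below 0.05, beside 27.7% of all genes. Without the correction voom called 5 of the 10, beside 41.7% of all genes. All values are RNA levels, and no protein or autophagic flux was analysed here.

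**Figure D1:**
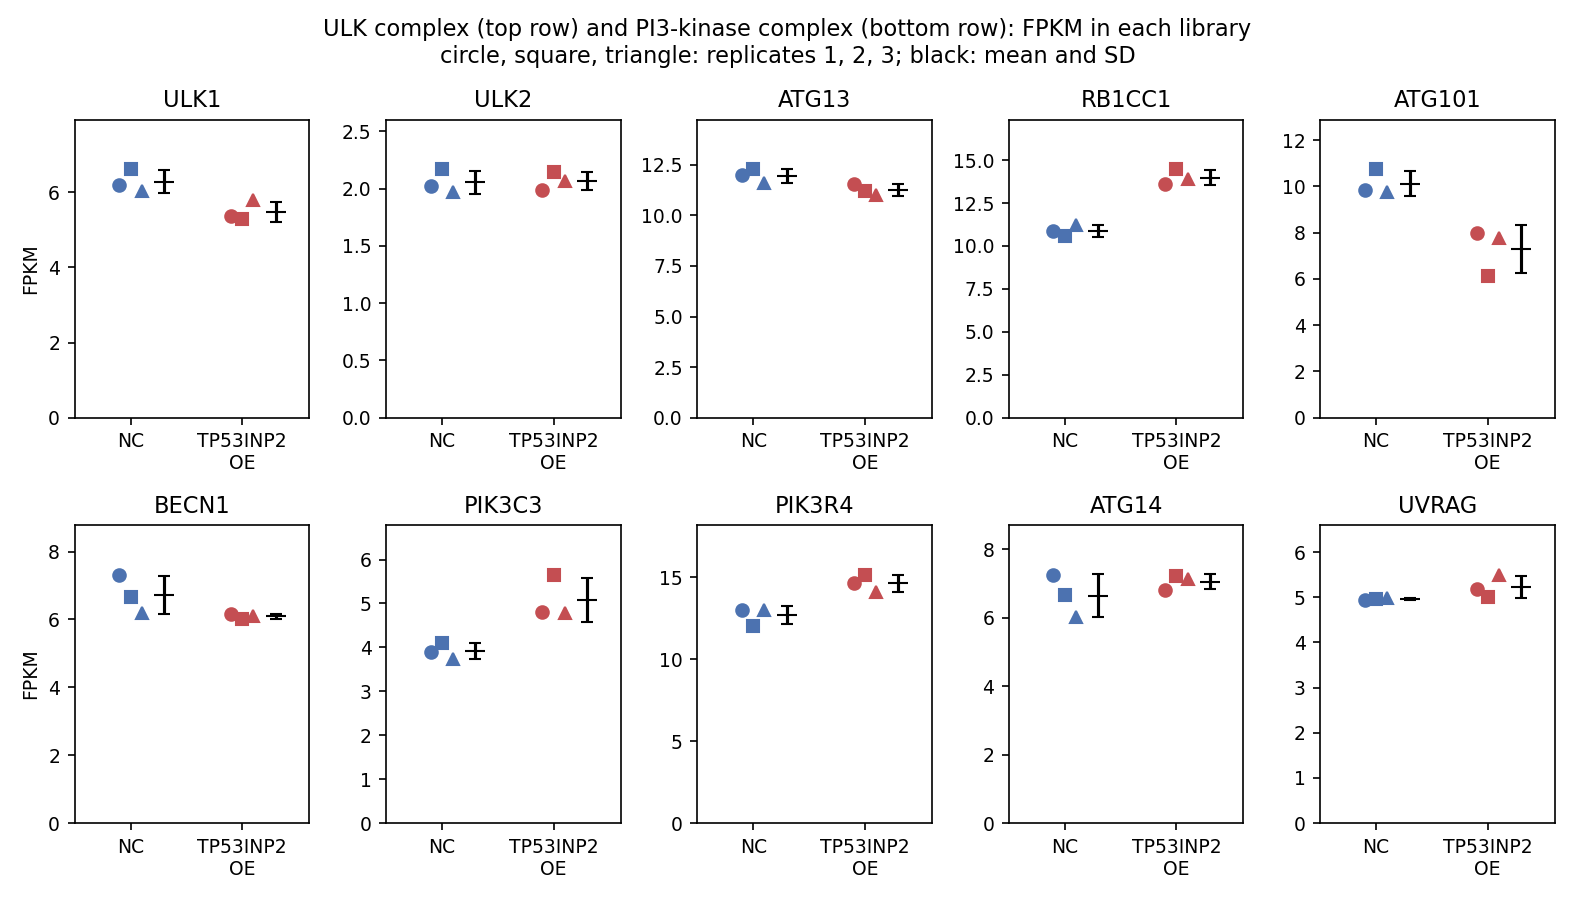
FPKM of each of the 10 genes in each library (y axis, from 0), NC in blue and TP53INP2 OE in red, with symbols for replicates 1 to 3 and the mean and SD of the 3 libraries in black. The groups are apart for 8 genes and overlap for ULK2 and ATG14.

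In the ULK complex, the scaffold gene RB1CC1 and the ATG13 partner ATG101 moved in opposite directions. RB1CC1 (ENSG00000023287, chromosome 8, positions 52622458 to 52745843 on GRCh38, minus strand) was at 10.8, 10.6 and 11.2 FPKM in NC and at 13.6, 14.5 and 13.9 FPKM in TP53INP2 OE. Every TP53INP2 OE library lay above every NC library, and the spread within each group was about 3% of its mean (coefficients of variation 3.15% and 3.17%). The log2 fold change, on the log2(FPKM + 1) scale used for all fold changes here, was 0.33 ± 0.04 (± standard error here and below; limma, adjusted p = 0.00327). This call held when any single library was left out, with RB1CC1 resting on 1346 to 1891 reads per library. With GC content and gene length fitted out its log2 fold change was 0.12 (adjusted p = 0.0538).

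ATG101 (ENSG00000123395, chromosome 12, positions 52069246 to 52077494, plus strand) was at 9.84, 10.7 and 9.76 FPKM in NC and at 8.00, 6.12 and 7.79 FPKM in TP53INP2 OE. All TP53INP2 OE libraries were below all NC libraries, and replicate 2 of TP53INP2 OE was the lowest of the 6. The log2 fold change was -0.43 ± 0.10 (limma, adjusted p = 0.0151). ATG101 did not pass without NC replicate 2 (log2 fold change -0.39, adjusted p = 0.0553), nor with GC content and gene length fitted out (-0.18, adjusted p = 0.193). It has the shortest gene model of the 10, at 3199 bases, and rested on 336 to 608 reads per library. An antisense gene, AC025259.1, shares 614 of those bases and was listed at 0 in every library. The sources used here do not say whether counting took strand into account.

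ATG13, the adaptor that links the kinase to RB1CC1's product, was at 12.0, 12.3 and 11.6 FPKM in NC and at 11.6, 11.2 and 11.0 FPKM in TP53INP2 OE. The groups were apart by a narrow margin, and the difference did not pass (log2 fold change -0.08, 95% interval -0.18 to 0.02, limma adjusted p = 0.177). ATG13 lies on chromosome 11 (positions 46617527 to 46674818, plus strand) and rested on 1249 to 1521 reads per library.

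The kinase paralogs differed in level, and neither passed the test between the groups. ULK1 (chromosome 12, positions 131894622 to 131923150, plus strand) was at 6.20, 6.61 and 6.03 FPKM in NC and at 5.36, 5.30 and 5.79 FPKM in TP53INP2 OE. The TP53INP2 OE libraries were all lower, but the difference missed the threshold (log2 fold change -0.17, 95% interval -0.30 to -0.04, limma adjusted p = 0.0513). ULK1 passed among protein-coding genes alone (adjusted p = 0.0364), among genes of at least 5 FPKM (0.0381) and with voom on the recovered reads (0.0260), and with GC content and gene length fitted out its log2 fold change turned to 0.13 (adjusted p = 0.166).

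ULK2 (chromosome 17, positions 19770829 to 19867936, minus strand) was at 2.03, 2.17 and 1.97 FPKM in NC and at 1.99, 2.15 and 2.07 FPKM in TP53INP2 OE. The groups overlapped, and the difference was near 0 (log2 fold change 0.01, 95% interval -0.15 to 0.16, limma adjusted p = 0.947). It was the lowest of the 10 genes in every library, with 318 to 379 reads.

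The promoters of the paralogs are shown because both are rich in G and C while their letters differ. These are the 250 bases before the RefSeq start site on GRCh38.p14, chr12:131894372-131894621 for ULK1 and chr17:19867937-19868186 (minus strand) for ULK2, written 5′ to 3′ with GC boxes (GGGCGG, either strand) in capitals.
ULK1: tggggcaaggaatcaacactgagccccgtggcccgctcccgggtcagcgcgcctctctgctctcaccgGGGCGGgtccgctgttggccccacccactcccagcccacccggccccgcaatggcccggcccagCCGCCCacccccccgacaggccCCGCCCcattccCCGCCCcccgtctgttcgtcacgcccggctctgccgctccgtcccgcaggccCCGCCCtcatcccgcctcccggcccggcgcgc
ULK2: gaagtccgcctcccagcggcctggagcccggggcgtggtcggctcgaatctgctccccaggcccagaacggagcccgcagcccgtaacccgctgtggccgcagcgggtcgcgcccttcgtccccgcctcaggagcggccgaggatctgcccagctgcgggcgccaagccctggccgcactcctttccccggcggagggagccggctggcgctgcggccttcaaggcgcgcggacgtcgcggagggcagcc
The ULK1 window is 78% and the ULK2 window 76% G and C, beside a median of 58% over 35116 promoters. The ULK1 window holds 5 GC boxes and the ULK2 window none, where 42.6% of promoters hold at least 1. A match is a match of letters and does not show binding.

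In the PI3-kinase complex, the lipid kinase gene PIK3C3 and its regulatory subunit gene PIK3R4 passed as higher, and no member passed as lower. BECN1 was lower in every TP53INP2 OE library than in any NC library without passing. PIK3C3 (ENSG00000078142, chromosome 18, positions 41955234 to 42087830, plus strand) was at 3.89, 4.11 and 3.74 FPKM in NC and at 4.80, 5.65 and 4.78 FPKM in TP53INP2 OE. The groups were apart, with replicate 2 of TP53INP2 OE the highest. The log2 fold change was 0.30 ± 0.07 (limma, adjusted p = 0.0181). PIK3C3 did not pass without NC replicate 1 (adjusted p = 0.0593), without NC replicate 3 (0.0566) or with no filter on low genes (0.0505), and with GC content and gene length fitted out its log2 fold change was 0.09 (adjusted p = 0.403).

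PIK3R4 (ENSG00000196455, chromosome 3, positions 130678934 to 130746829, minus strand) was at 13.0, 12.0 and 13.0 FPKM in NC and at 14.6, 15.2 and 14.1 FPKM in TP53INP2 OE. The groups did not overlap, and PIK3R4 had a log2 fold change of 0.19 ± 0.05 (limma, adjusted p = 0.0206). PIK3R4 did not pass without NC replicate 2 (adjusted p = 0.0650) or without TP53INP2 OE replicate 2 (0.0565), and with GC content and gene length fitted out its log2 fold change was 0.10 (adjusted p = 0.201).

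The upstream sequences of PIK3C3 and PIK3R4 are shown because these are the 2 subunits of the PI3-kinase complex that rose. They run from 250 bases before the RefSeq start site on GRCh38.p14, chr18:41954984-41955205 for PIK3C3, which stops where GENCODE places an exon, and chr3:130746830-130747079 (minus strand) for PIK3R4. Capitals mark a CCAAT box (CCAAT), a GC box (GGGCGG) and an ETS motif (CCGGAAG), each searched on both strands.
PIK3C3: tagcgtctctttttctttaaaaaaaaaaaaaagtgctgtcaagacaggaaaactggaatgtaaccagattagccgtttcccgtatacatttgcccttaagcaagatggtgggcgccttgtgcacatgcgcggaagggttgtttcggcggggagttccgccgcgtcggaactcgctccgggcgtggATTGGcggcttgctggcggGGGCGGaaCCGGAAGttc
PIK3R4: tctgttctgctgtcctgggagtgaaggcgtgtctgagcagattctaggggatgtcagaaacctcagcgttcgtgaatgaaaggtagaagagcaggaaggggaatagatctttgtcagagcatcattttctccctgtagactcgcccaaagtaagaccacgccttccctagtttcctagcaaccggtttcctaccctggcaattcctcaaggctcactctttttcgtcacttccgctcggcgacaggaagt
PIK3C3 held 1 of each of these motifs, while the PIK3R4 window held none of them. Over all promoters 32.0% held CCAAT, 42.6% the GC box and 8.52% the ETS motif.

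BECN1, which encodes the scaffold Beclin 1, was at 7.32, 6.67 and 6.18 FPKM in NC and at 6.16, 6.01 and 6.11 FPKM in TP53INP2 OE. The lowest NC library and the highest TP53INP2 OE library were nearly equal, and the NC libraries were the more spread (coefficients of variation 8.51% and 1.23%). The log2 fold change of -0.12 (95% interval -0.27 to 0.03) did not pass (limma, adjusted p = 0.179). BECN1 lies on chromosome 17 (positions 42810134 to 42833350, minus strand), and its exons share 300 bases with PSME3, on the opposite strand and at 46.7 to 53.6 FPKM, and 795 bases with CNTD1. Its value may hold reads of these genes if strand was not used.

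The subunits that set the use of the complex did not pass either. ATG14, the autophagosome-directing subunit (chromosome 14, positions 55366391 to 55411830, minus strand), was at 7.25, 6.66 and 6.01 FPKM in NC and at 6.80, 7.21 and 7.14 FPKM in TP53INP2 OE. The groups overlapped (log2 fold change 0.08, 95% interval -0.08 to 0.24, limma adjusted p = 0.408). UVRAG, its counterpart in the endosomal form (chromosome 11, positions 75815210 to 76144232, plus strand), was at 4.94, 4.96 and 4.98 FPKM in NC and at 5.18, 5.01 and 5.50 FPKM in TP53INP2 OE. The NC libraries of UVRAG were nearly equal and all lay below TP53INP2 OE, with a log2 fold change of 0.06 (95% interval -0.05 to 0.18, limma adjusted p = 0.362).

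ATG14 was the only member of the 8 with a promoter in the RefSeq table whose 250 bases held an E-box (CACGTG, the core of the site read by TFEB and related factors), which 6.34% of promoters held. It is shown in capitals with 10 bases on either side, chr14:55411836-55411861 on the minus strand of GRCh38.p14. The E-box lies 21 to 16 bases before the RefSeq start site, among the 28 of the 250 bases that GENCODE places in an ATG14 exon.
ATG14: aacaaaatccCACGTGactggctctc
TFEB-family factors are known to act on autophagy and lysosome genes. ATG14 RNA did not pass in this comparison, as given above.

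**Figure D2:**
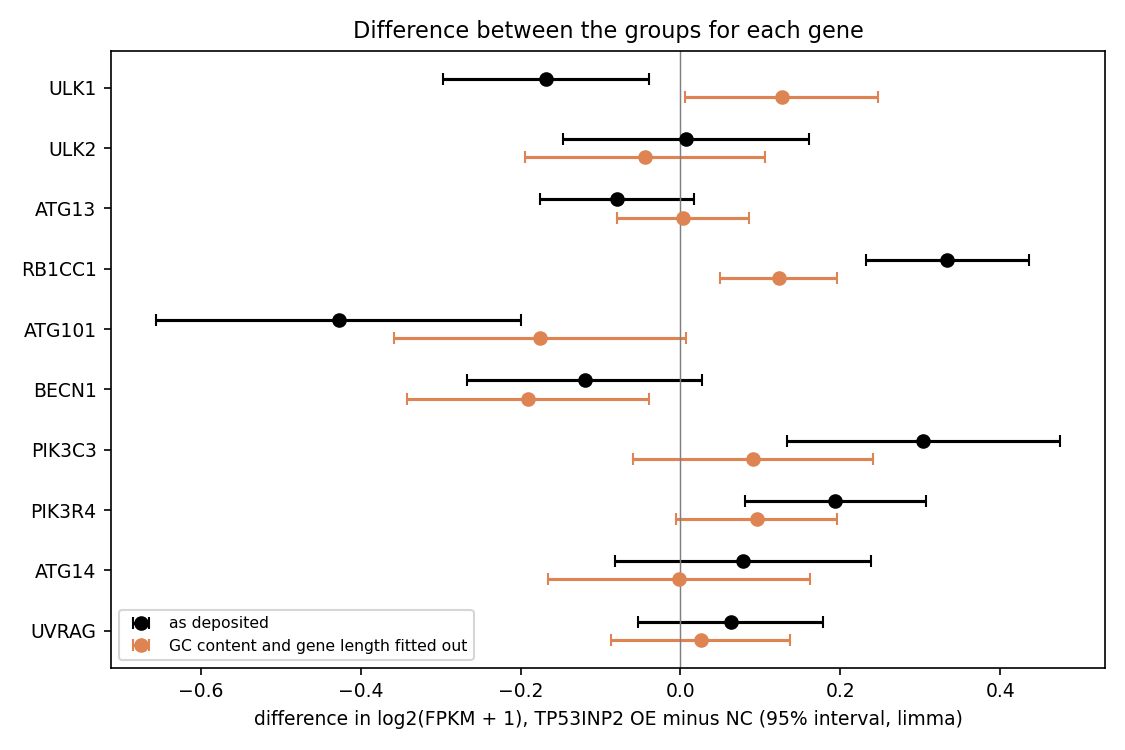
Difference in log2(FPKM + 1) between TP53INP2 OE and NC for each gene (x axis) with its 95% interval from limma, in black for the values as deposited and in orange with GC content and gene length fitted out. RB1CC1 moves from 0.33 to 0.12, ATG101 from -0.43 to -0.18 and ULK1 from -0.17 to 0.13.

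The 10 differences ran with the GC content of the transcripts. RB1CC1 (37.6% G and C in its longest GENCODE transcript), PIK3C3 (38.3%) and PIK3R4 (43.9%) were the 3 lowest in GC content and were the 3 that rose, and ATG101 (59.8%) was the second highest. Spearman's rho between GC content and log2 fold change was -0.90 over the 10 genes and -0.68 over 14548 tested genes, which share the same libraries and are not independent. In the tenth of genes with the lowest GC content, which holds RB1CC1 and PIK3C3, 48.2% of genes rose, 0.480% fell and the median log2 fold change was 0.23. In the tenth with PIK3R4, ATG14 and BECN1, 20.9% rose and 2.41% fell. In the tenth with ULK2 and UVRAG, 10.6% rose and 5.29% fell, and in the tenth with ATG13, 3.23% rose and 22.2% fell. In the tenth with ATG101, 0.550% rose, 49.2% fell and the median was -0.23.

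ULK1 lay above and BECN1 below the median of genes of like GC content, both within the 10th to 90th percentile of those genes. ULK1, at 64.2% the highest in GC content, was in the tenth where 0.206% of genes rose and 58.5% fell with a median of -0.31, and had -0.17 itself. BECN1, at 45.2%, had -0.12 where the median was 0.09. With GC content and gene length fitted out, ULK1 was at 0.13 (95% interval 0.01 to 0.25) and BECN1 at -0.19 (-0.34 to -0.04), and neither passed (limma, adjusted p = 0.166 and 0.108). ULK1, BECN1 and RB1CC1 were the 3 members with an unadjusted p below 0.05 in that fit.

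The libraries also differed in their slope with GC content. Set against the mean of each gene, a library's values sloped by 0.12, 0.11 and 0.07 on the log2 scale per 10 points of GC content in NC, and -0.07, -0.14 and -0.08 in TP53INP2 OE. Replicate 2 of TP53INP2 OE had the steepest negative slope, and it was also the highest library for RB1CC1, PIK3C3 and PIK3R4 and the lowest for ATG101. The other libraries did not rank by slope: within NC replicate 1 had the steepest slope, while RB1CC1 and PIK3R4 were lowest and ATG101 was highest in replicate 2. With the correction, ATG101 in replicate 2 of TP53INP2 OE was 0.25 below its mean on the log2 scale, where it had been 0.43 below. GC content and group cannot be told apart in these 6 libraries, since the slopes of the groups do not overlap.

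**Figure D3:**
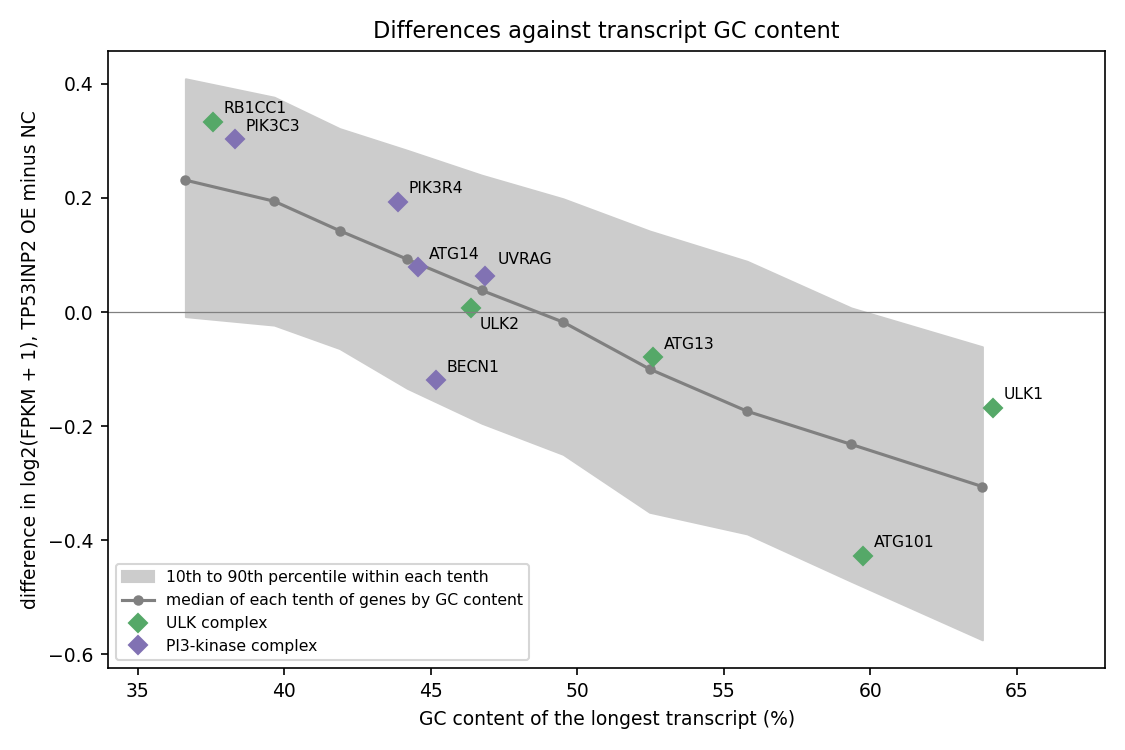
Difference in log2(FPKM + 1) between TP53INP2 OE and NC (y axis) against GC content of the longest transcript (x axis) for the 10 genes (diamonds), over the median (line) and the 10th to 90th percentile (band) of all tested genes in 10 groups by GC content. The line falls from 0.23 to -0.31, 9 of the 10 genes lie within the band, and ULK1 lies just past its right end.

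On the scale of the deposited table, which divides by its own gene length, the NC levels spanned 6.16 times from PIK3R4 (12.7 ± 0.55 FPKM) to ULK2 (2.05 ± 0.10 FPKM; SD, n = 3). The order was PIK3R4, ATG13, RB1CC1, ATG101, BECN1, ATG14, ULK1, UVRAG, PIK3C3 and ULK2. Neighbours whose NC libraries overlapped were PIK3R4 and ATG13, RB1CC1 and ATG101, BECN1 and ATG14, and ATG14 and ULK1. In TP53INP2 OE, RB1CC1 (14.0 ± 0.44 FPKM) stood above ATG13 (11.3 ± 0.28 FPKM) with no overlap, and ATG101 (7.30 ± 1.03 FPKM) overlapped ATG14 (7.05 ± 0.22 FPKM).

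This order depends on the length used. The deposited length equals the merged GENCODE 29 exons for ATG13, ATG101 and BECN1 and is within 28 bases of them for the others, except for UVRAG, with 7346 bases deposited and 6352 in merged exons. BECN1 has a deposited length of 6414 bases, while its longest coding transcript in GENCODE 29 has 2112, and for PIK3C3 these are 15170 and 9443 bases. Per length of the longest coding transcript, a scale chosen after seeing the data, ATG101 (22.5 ± 1.21 FPKM), BECN1 (20.4 ± 1.74) and ATG13 (19.2 ± 0.54) were the highest in NC, and BECN1 went from the fifth place to the second. ULK2 remained the lowest on this scale too, at 3.37 ± 0.17 FPKM. Differences between the groups for a gene do not depend on this choice apart from the pseudocount.

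**Figure D4:**
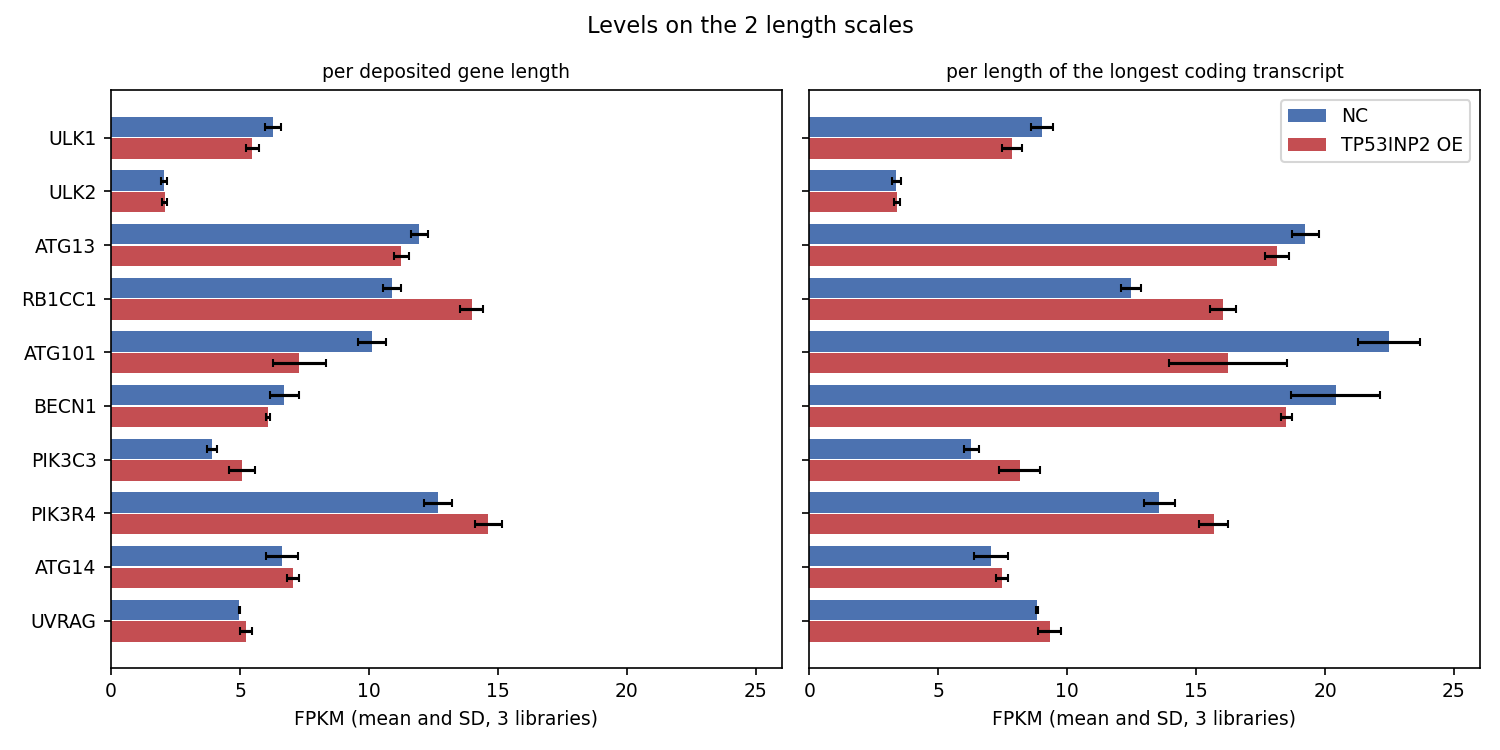
Mean FPKM with SD over 3 libraries (x axis, from 0) for each gene in NC (blue) and TP53INP2 OE (red), per deposited gene length on the left and per length of the longest coding transcript on the right. BECN1 in NC is at 6.72 FPKM on the left and 20.4 FPKM on the right, and ULK2 is the lowest on both.

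Ratios between members within a library do not depend on how that library was scaled. The ATG14 to UVRAG ratio, which sets the subunits of the autophagic and the endosomal form side by side, was 1.47, 1.34 and 1.21 in NC and 1.31, 1.44 and 1.30 in TP53INP2 OE. The groups overlapped, with a log2 difference of 0.02 (exact two-sided permutation test, p = 1). The sign of this difference turned without NC replicate 3 (-0.06) and without TP53INP2 OE replicate 2 (-0.03).

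The ULK2 to ULK1 ratio was 0.327, 0.328 and 0.326 in NC and 0.371, 0.406 and 0.357 in TP53INP2 OE. The NC libraries were nearly identical, and all TP53INP2 OE libraries were above them, a log2 difference of 0.21 (exact two-sided permutation p = 0.1, the smallest that 3 against 3 libraries can give, and 0.2 with Benjamini-Hochberg adjustment over the 2 ratios tested). With GC content and gene length fitted out this difference was -0.17, with the groups again apart (exact permutation p = 0.1). The higher ratio before the correction came with a lower ULK1 and an ULK2 at an equal level.

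A pair of ratios chosen after their values were seen moved further. RB1CC1 to ATG101 went from 1.10, 0.983 and 1.15 in NC to 1.70, 2.36 and 1.78 in TP53INP2 OE, a log2 difference of 0.84 that was 0.30 with the correction. PIK3C3 to BECN1 went from 0.532, 0.617 and 0.606 to 0.779, 0.941 and 0.782, a log2 difference of 0.51 that was 0.28 with the correction. Each sets a member with higher TP53INP2 OE libraries over one with lower ones, so their separation was fixed by the choice and they were not tested.

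**Figure D5:**
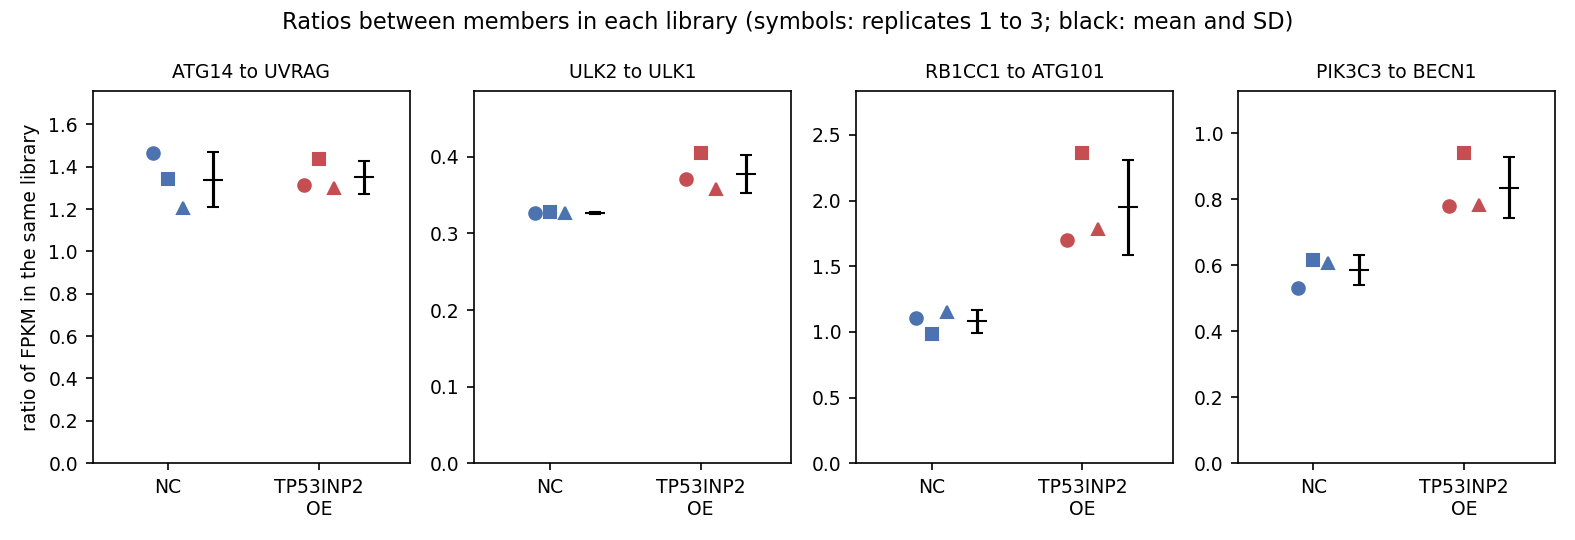
Ratio of the FPKM values of 2 members within each library (y axis, from 0), NC in blue and TP53INP2 OE in red, with symbols for replicates 1 to 3 and the mean and SD in black. ATG14 to UVRAG overlaps between the groups, and the other 3 ratios are higher in every TP53INP2 OE library.

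Genes that act on or beside the 2 complexes moved both ways, in counts to be read against the 16.4% of all tested genes that rose and the 18.6% that fell. Of 11 tested regulators of the ULK complex, 4 rose and 2 fell (median log2 fold change 0.02, beside 0.0032 for all genes). PRKAA1, the AMPK catalytic subunit alpha 1, rose from 28.6 ± 0.69 to 36.6 ± 1.61 FPKM (log2 fold change 0.34, limma adjusted p = 0.00320). C9orf72, whose product is reported to bind the ULK complex, rose from 3.25 ± 0.19 to 4.66 ± 0.37 FPKM (0.41, adjusted p = 0.00592). Of 11 tested regulators of the PI3-kinase complex, 3 rose and 1 fell (median 0.06), with log2 fold changes of 0.36 for PAQR3 (adjusted p = 0.00756) and 0.28 for SH3GLB1 (adjusted p = 0.0303), which encodes the Beclin 1 and UVRAG partner Bif-1. With GC content and gene length fitted out, none of the ULK regulators passed, and 1 PI3-kinase regulator fell, where 5.88% of all genes fell.

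Downstream of PI3P, 2 of 14 tested effectors and phosphatases rose and 2 fell (median 0.09), against the same 16.4% and 18.6% of all genes. EEA1, an endosomal tether that binds PI3P, rose from 8.73 ± 0.41 to 11.7 ± 0.61 FPKM (limma, adjusted p = 0.00400), and PIKFYVE, which converts PI3P to the bisphosphate, from 7.63 ± 0.08 to 9.48 ± 0.28 FPKM (adjusted p = 0.00436). Of 21 tested genes of the later autophagy machinery 6 rose and 3 fell (median 0.13). MAP1LC3B, which encodes LC3B and was named for the size of its change, had a log2 fold change of 0.40. With GC content and gene length fitted out it was 0.44 (limma, adjusted p = 0.00956), in a fit that 10.4% of all genes passed. ATG4D, an LC3 protease, had -0.51 before and -0.18 after (adjusted p = 0.10). Of 10 tested related kinases 3 rose and 1 fell (median 0.14), among them the class I and class II kinases PIK3CA (0.37) and PIK3C2A (0.35), which had 0.15 and 0.14 after the correction and did not pass. After the correction EEA1 had a log2 fold change of 0.15 and PIKFYVE 0.11, and neither passed (limma, adjusted p = 0.0503 and 0.0957). In the same fit 2 other PI3P effectors rose and 1 fell, 2 later autophagy genes rose and none fell, and no related kinase passed. Over all genes 4.53% rose and 5.88% fell in that fit.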

How the data were processed

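The table the authors deposited gives FPKM (reads scaled by gene length and by library total) beside each gene's name, position, length and type, per the file headers. Bowtie 0.12.2 is named in the submitters' processing notes, as are GRCh38 and mm8, without saying what each was for. The sources used here give no counting step. FPKM times gene length came out as whole multiples of 1 step in each library (100% of values above 0, tolerance 0.01), which gave the reads behind each value. Every pair of libraries differed by more than sampling noise (chi-square per degree of freedom 2.58 to 4.97 within groups, 13.6 to 33.0 between).

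Groups came from the sample titles. Genes averaging 0.5 FPKM or more were kept and log2(FPKM + 1) was tested by limma 3.58.1 under R 4.3.3 (empirical Bayes with trend, Benjamini-Hochberg adjustment over all genes kept, threshold 0.05). The procedure was run on simulated data too, which held no slope with GC content and so do not bear on that trend. The log scale with a pseudocount understates changes of low genes. For the correction, each library's distance from a gene's mean was fitted with natural splines of GC content (longest GENCODE 29 transcript, known for 98.4% of tested genes) and of log2 gene length, with 5 degrees of freedom for each, and the fit was subtracted. It takes out any real change that runs with GC content too. Promoters are RefSeq's, matched by symbol for 8 of 10 members, and the motifs were chosen after seeing them.

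The named genes are all 10 members, TP53INP2, and up to 2 genes past the threshold with the largest change from each of 5 lists, beside markers of cell types. Members, lists and the alternatives were chosen with earlier results of these data known. Alternatives covered the pseudocount, filters, scaling, voom, the correction, a replicate block and leaving out each library.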

Additional observations from a re-analysis of the deposited data

How the results depend on the processing

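Over 17 alternatives (16 for ULK2 and PIK3C3, which a minimum of 5 FPKM left out), RB1CC1, ATG101, PIK3C3, PIK3R4, BECN1 and UVRAG kept their direction in each. RB1CC1 passed in 15, ATG101 in 14, PIK3R4 in 12 and PIK3C3 in 11, and ULK1 passed in 3. With GC content and gene length fitted out, 0 members rose and 0 fell, with and without a replicate block (limma; 3 with an unadjusted p below 0.05 in each). In both, ULK1 turned to 0.13, ULK2 to -0.045, ATG13 to 0.0027 and ATG14 to -0.0020, none past the threshold, the ULK2 to ULK1 ratio turned to -0.17 without a block, and the ATG14 to UVRAG ratio to -0.027. The number of members that fell was 2 with voom, with only protein-coding genes and with a minimum of 5 FPKM, ULK1 being the second. Over all genes 3171 of 14791, 3053 of 11278 and 2405 of 7264 fell in these fits, the last with 8 members tested. Leaving out 1 library gave 2 to 3 members that rose and 0 to 1 that fell. Of 14791 tested genes, 1460 to 2203 rose and 1816 to 2576 fell in those fits. The log2 differences ran from -0.057 to 0.084 for ATG14 to UVRAG and from 0.16 to 0.25 for ULK2 to ULK1. ULK2 lay between -0.014 (without NC replicate 3) and 0.034, with -0.012 without TP53INP2 OE replicate 2. Over all genes, the uncorrected count of 5183 went to 1514 with the correction (659 rose, 855 fell) and to 668 with the block as well.

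Same-numbered libraries did not deviate together (correlations across genes of 0.017, 0.012 and 0.011, beside -0.027 to 0.015 for different numbers). With 3 libraries per group this check cannot exclude that the numbers pair the libraries. The replicate block alone left 2 members rising and 1 falling, where 1980 and 2416 of 14791 genes did, with PIK3R4 at a limma adjusted p of 0.0564. Without NC replicate 1 the count over all genes was 3276. Depth limits ULK2 and ATG101 most, at no more than 379 and 608 reads in a library.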
